A study of Mus musculus with 2 samples.

Results

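The EGF receptor family and its ligands were followed through 10 genes in mouse crypts grown together with intestinal fibroblasts. The set holds 7 ligand genes (Areg, Ereg, Hbegf, Tgfa, Btc, Epgn and Nrg1) and 3 receptor genes (Egfr, Erbb2 and Erbb3). They were taken by symbol, and all 10 were found among the 18309 genes of both expression tables. The cells came from small intestine of C57BL6 mice aged 10 weeks and were grown together in organoid growth medium, whose composition is not given in the sources used here. In the Ptger4-ON group the cultures received the vehicle DMSO and grew as spheroids. In the Ptger4-OFF group they received ONO-AE3-208, an inhibitor of the prostaglandin E2 receptor EP4 that the gene Ptger4 encodes, at 10 µM every second day, and grew as budding organoids. Each group was 1 Drop-seq library made from a pool of 6 cultures that had been dissociated with trypsin and EDTA. With 1 library in each group no difference between the groups could be tested, and the intervals below (95%, exact) and the floors cover counting error only.

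Ligands of the EGF family are made as precursors anchored in the cell membrane, and metalloproteases such as ADAM17 cut them free. EGFR binds EGF, amphiregulin, TGF-alpha, epiregulin, betacellulin, HB-EGF and epigen, ERBB3 binds neuregulins and has little kinase activity of its own, and ERBB2 has no known ligand and acts as the partner of the other receptors. The receptors signal through RAS and ERK, and in the intestine this pathway drives crypt cells to divide and epithelium to regrow after injury. Only mRNA was measured here, so the values say nothing of how much ligand was shed or how much receptor was active.

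The libraries held 908 barcodes and 7408303 unique molecular identifiers (UMIs) in Ptger4-ON and 1599 barcodes and 9490205 UMIs in Ptger4-OFF, and 1 barcode occurred in both. Cells were put into classes by their UMIs of Epcam, Krt8 and Krt18 against those of Col1a1, Col1a2 and Col3a1. This gave 554 epithelial-like and 267 fibroblast-like cells in Ptger4-ON (median 5308.5 and 5060 UMIs), and 1140 and 350 in Ptger4-OFF (median 4336.5 and 4591.5 UMIs). Marker genes that had not been used for this choice fitted the names. The 6 epithelial check genes, summed, stood in fibroblast-like cells at 1.26% of their epithelial level in Ptger4-ON and 1.65% in Ptger4-OFF, and the 7 fibroblast check genes stood in epithelial-like cells at 0.330% of their fibroblast level in both. Summed over their lists, the 7 leukocyte genes reached at most 3.80 counts in each 1000000 UMIs (CPM) in either class and the 6 endothelial genes at most 2.31 CPM, with Pecam1 and Cdh5 at 0. The 7 smooth muscle and pericyte genes together had 241 and 269 CPM in the fibroblast class, and their part in the fibroblast values was not tested. Ptger4-ON held 16 barcodes of over 50000 UMIs and Ptger4-OFF held 6. All of these were epithelial-like, with 22.9% and 5.04% of the epithelial UMIs. Ptger4-ON also held 61 pairs of barcodes 1 base apart and Ptger4-OFF 17, and 96 and 152 barcodes ended in N. Such barcodes were counted as separate cells in the numbers and shares given, and whether some were the same cell was not tested.

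Most ligand mRNA of the family was found in one class of cells. Areg, Btc and Tgfa were epithelial, Nrg1 was fibroblast, and Ereg and Hbegf were read in both classes with opposite leanings. Among the receptors, Erbb3 was read in no fibroblast-like cell, Erbb2 leaned to the epithelium and Egfr to the fibroblasts. Of 9 members with at least 20 UMIs over both classes, 5 differed by 4-fold or more between the classes in Ptger4-ON, where 23.3% of the 11519 genes measured did. In Ptger4-OFF the count was 6 of 9, beside 24.4% of 11749 genes. Epgn was left out of all such comparisons because the kept cells of both classes held 2 UMIs of it in Ptger4-ON and 3 in Ptger4-OFF. Levels of one gene are not set against those of another here, because the counts are not corrected for differences in capture between transcripts.

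**Figure D1:**
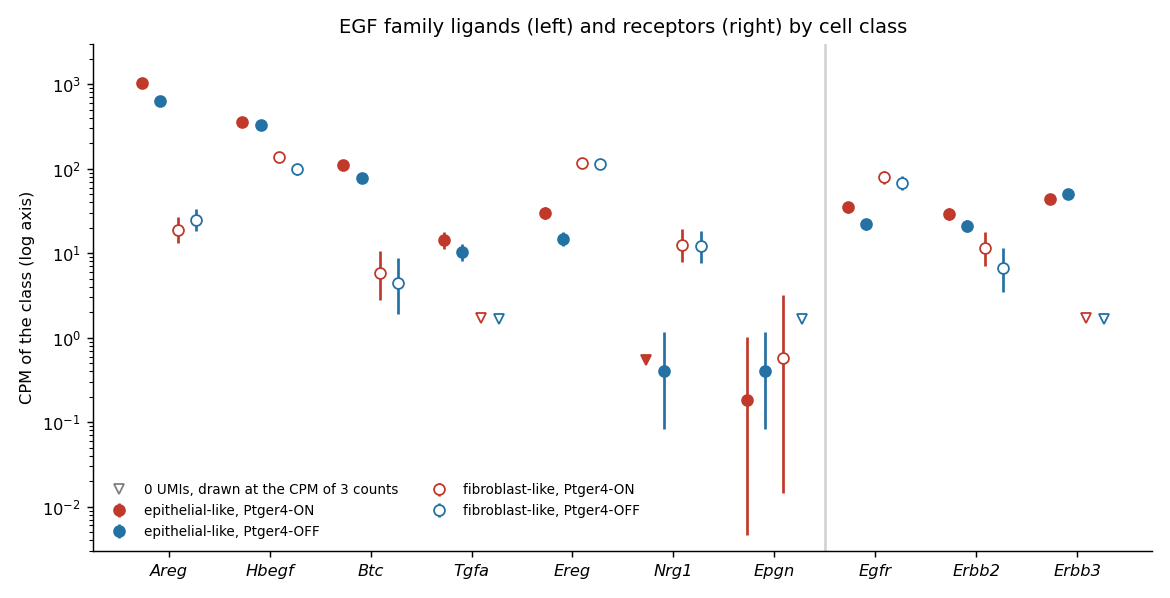
Level of each of the 10 members in CPM (log axis) in epithelial-like cells (filled) and fibroblast-like cells (open) of the Ptger4-ON (red) and Ptger4-OFF (blue) libraries, with 95% Poisson intervals; triangles mark 0 UMIs and stand at the level of 3 counts. Areg, Btc, Tgfa and Erbb3 stand higher in the epithelial-like class in both libraries, and Nrg1, Ereg and Egfr in the fibroblast-like class.

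Areg encodes amphiregulin, a ligand of EGFR. Its epithelial level was 1041 CPM (1015 to 1069; 5748 UMIs) in Ptger4-ON and 629 CPM (611 to 647; 4720 UMIs) in Ptger4-OFF. In fibroblast-like cells it was 19.0 CPM from 33 UMIs and 24.95 CPM from 45 UMIs. The epithelium therefore held Areg mRNA at a 54.7-fold higher level (38.9 to 79.5) in Ptger4-ON and a 25.2-fold higher level (18.8 to 34.6) in Ptger4-OFF. The fibroblast level was 1.83% and 3.97% of the epithelial one, next to 1.26% and 1.65% for the epithelial check genes, and whether free epithelial RNA contributed to it was not tested. Between the conditions, the epithelial level was 1.66-fold higher (1.59 to 1.72) in Ptger4-ON. In fibroblast-like cells the ratio of Ptger4-OFF to Ptger4-ON was 1.31 with an interval of 0.817 to 2.12, which includes 1. From few UMIs, the level was 8.02 CPM in Ptger4-ON and 53.4 CPM in Ptger4-OFF in the fibroblast cluster led by Grem1 and Mmp10. In the one led by Mgp and Spp1 it was 22.3 and 19.2 CPM, with 12 of 30 UMIs in 1 cell in Ptger4-ON.

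Areg lies on chromosome 5 of the mouse genome in a row with 3 other ligand genes. Epgn (91027517 to 91035212), Ereg (91074617 to 91093649), Areg (91139599 to 91148432) and Btc (91357261 to 91402994) span 375 kb in the RefSeq annotation of GRCm38.p6. The other members are spread over chromosomes 6 (Tgfa), 8 (Nrg1), 10 (Erbb3), 11 (Egfr and Erbb2) and 18 (Hbegf). RefSeq promoter windows from 250 bases before to 50 bases after the gene's start were matched for 6 of the 10 members. No window was matched for Ereg, Hbegf, Nrg1 or Erbb3, so their letters were not read. EP4 raises cyclic AMP, whose transcription factor CREB is known to bind TGACGTCA and the shorter TGACG. Whether CREB acts on these genes here was not tested. The windows of Areg, Btc and Epgn, the matched ligand genes with TGACG, are shown. Each runs 5′ to 3′ on the gene's own strand, covers the start of the first exon, and has TGACG, on either strand, in capitals. The first is at chr5:91139349-91139648 on the plus strand, the second at chr5:91402945-91403244 on the minus strand and the third at chr5:91027267-91027566 on the plus strand.
Areg promoter: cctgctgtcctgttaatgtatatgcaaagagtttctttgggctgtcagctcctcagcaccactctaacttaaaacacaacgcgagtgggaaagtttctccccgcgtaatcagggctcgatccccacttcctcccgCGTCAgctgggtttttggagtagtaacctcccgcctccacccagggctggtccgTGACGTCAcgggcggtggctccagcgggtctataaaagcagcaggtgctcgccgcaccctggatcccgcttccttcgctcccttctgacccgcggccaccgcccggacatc
Btc promoter: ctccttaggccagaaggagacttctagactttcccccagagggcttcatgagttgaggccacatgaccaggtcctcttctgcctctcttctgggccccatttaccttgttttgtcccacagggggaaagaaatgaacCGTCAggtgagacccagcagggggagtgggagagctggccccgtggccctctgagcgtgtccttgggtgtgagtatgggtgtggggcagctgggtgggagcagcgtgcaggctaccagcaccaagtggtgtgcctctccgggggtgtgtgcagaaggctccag
Epgn promoter: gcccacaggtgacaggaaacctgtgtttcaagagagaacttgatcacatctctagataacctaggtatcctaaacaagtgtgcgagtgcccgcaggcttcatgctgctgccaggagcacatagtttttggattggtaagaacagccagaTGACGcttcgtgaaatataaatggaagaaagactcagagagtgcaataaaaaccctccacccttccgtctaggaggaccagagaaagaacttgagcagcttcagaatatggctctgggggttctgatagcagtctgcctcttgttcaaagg

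The Areg window held the palindrome TGACGTCA at 61 to 54 bases before the start, which contains TGACG once on each strand, overlapping. It held one more TGACG on the other strand (CGTCA) at 115 to 111 bases before the start, and TATAAA on the gene's strand at 31 to 26 bases. In the Btc window CGTCA was found at 113 to 109 bases before the start. The Epgn window had TGACG at 101 to 97 bases and TATAAA at 86 to 81 bases before the start. Among the receptors, the Erbb2 window had CGTCA at 171 to 167 bases before the start, and the Egfr window had none of these letters, like that of the ligand gene Tgfa. Of all 32851 promoter windows of the same length, 1.79% held TGACGTCA, 20.8% held TGACG on either strand and 8.32% held TATAAA on the gene's strand. A match is a description of the letters, and binding of any factor was not measured.

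Epithelial Areg mRNA was concentrated in some states of the epithelium. The cells were clustered without the members and without the other pathway genes. Clusters were named by markers where these allowed it and otherwise by genes picked from among their leading genes. The cluster called cycling was led by genes of mitosis, such as Top2a and Cenpf. Genes of DNA replication (Mcm3, Mcm4 and Cdt1) were among the leading genes of the cluster led by Mcm4, Aqp4 and Ttr. Whether its cells were cycling too was not tested. In Ptger4-ON the cluster led by Msln, Clu and Ly6a, genes known from fetal-like and regenerating epithelium, held 183 of 554 epithelial-like cells (33.0%) and 34.6% of their UMIs, but 73.8% of their Areg UMIs. In Ptger4-OFF it held 81 of 1140 cells (7.11%), 10.5% of the UMIs and 35.3% of the Areg UMIs. There the cluster led by Selenbp1, Ndrg1 and Nrn1 (137 cells) added 24.2% and the enterocyte-like cluster (101 cells) 23.1% of the Areg UMIs. The cycling cluster held 40.2% and 45.1% of the epithelial UMIs of the 2 libraries, but 8.16% and 11.1% of the Areg UMIs.

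By level, the same cluster led by Msln, Clu and Ly6a carried 2221 CPM of Areg in Ptger4-ON and 2118 CPM in Ptger4-OFF, a ratio of 0.954 (0.901 to 1.01). Its level was 10.5-fold that of the cycling cluster (9.55 to 11.6) in Ptger4-ON and 13.7-fold (12.4 to 15.1) in Ptger4-OFF. Next in Ptger4-ON came the cluster led by Selenbp1, Ndrg1 and Nrn1 with 1995 CPM from 29 cells, against 1369 CPM from 137 cells in Ptger4-OFF. The order was then the enterocyte-like cluster (1094 CPM from 19 cells) and the Paneth- and goblet-like cluster (455 CPM). After these came the cluster led by Mcm4, Aqp4 and Ttr (385 CPM) and the cycling cluster (211 CPM). In Ptger4-OFF the enterocyte-like cluster reached 1458 CPM, the cluster led by Mcm4, Aqp4 and Ttr 174 CPM, the cycling cluster 155 CPM and the Paneth- and goblet-like cluster 135 CPM. In both libraries the 3 upper clusters were the one led by Msln, Clu and Ly6a, the one led by Selenbp1, Ndrg1 and Nrn1, and the enterocyte-like one. Some neighbours in this order had overlapping intervals. In Ptger4-ON these were the upper 2 clusters (2154 to 2288 and 1803 to 2202 CPM) and the Paneth- and goblet-like cluster with the one led by Mcm4, Aqp4 and Ttr (403 to 511 and 324 to 454 CPM). In Ptger4-OFF they were the enterocyte-like cluster with the one led by Selenbp1, Ndrg1 and Nrn1 (1373 to 1548 and 1291 to 1451 CPM), and the last 3 clusters with one another. The small enteroendocrine-like cluster had 24 Areg UMIs in 14 cells of Ptger4-OFF (410.3 CPM) and 0 in its 1 cell of Ptger4-ON.

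Within clusters the ratio of Areg between the libraries was not the same as over the whole epithelium. It was close to 1 in the cluster led by Msln, Clu and Ly6a. Areg was higher in Ptger4-ON by 1.46-fold (1.30 to 1.64) in the cluster led by Selenbp1, Ndrg1 and Nrn1, by 3.36-fold (2.53 to 4.52) in the Paneth- and goblet-like cluster, by 2.21-fold (1.78 to 2.75) in the cluster led by Mcm4, Aqp4 and Ttr, and by 1.37-fold (1.20 to 1.55) in the cycling cluster. In the enterocyte-like cluster it was 1.33-fold higher (1.15 to 1.55) in Ptger4-OFF. Single cells held much of some of these counts in Ptger4-ON. Of these, 1 cell with 92081 of the 203750 UMIs of the enterocyte-like cluster gave 117 of that cluster's 223 Areg UMIs. Another gave 79 of 280 in the Paneth- and goblet-like cluster. In the cluster led by Selenbp1, Ndrg1 and Nrn1, 1 cell of 33587 UMIs gave 90 of 395. Without the highest cell of each library the ratios of Ptger4-OFF to Ptger4-ON in these clusters were 1.40, 0.290 and 0.771. When the 6 epithelial clusters of Ptger4-OFF were weighted by the UMI shares they had in Ptger4-ON, the ratio of Areg over these clusters went from 0.604 to 0.888, that is, from 630 to 926 CPM beside 1043 CPM in Ptger4-ON.

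**Figure D2:**
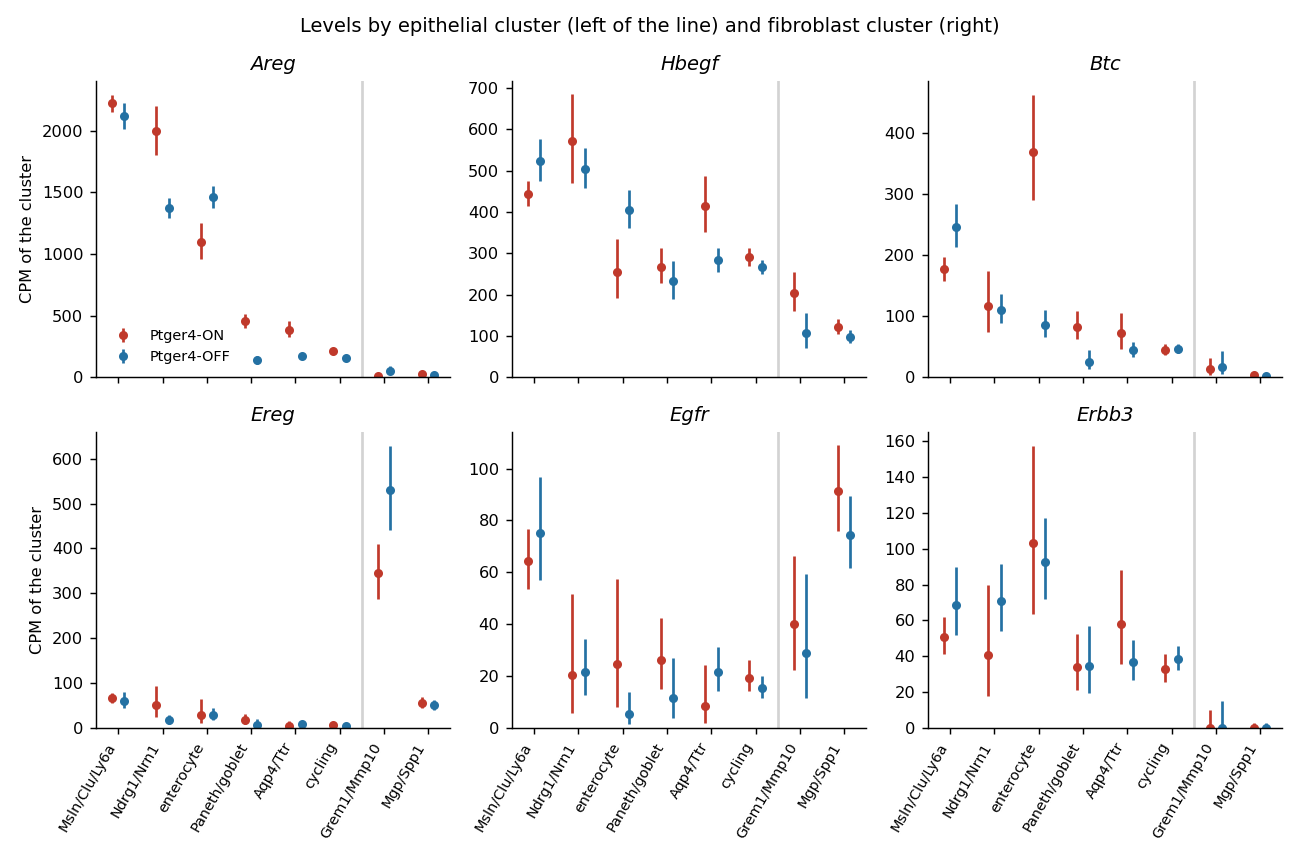
Levels of Areg, Hbegf, Btc, Ereg, Egfr and Erbb3 in CPM in 6 epithelial and 2 fibroblast clusters of the Ptger4-ON (red) and Ptger4-OFF (blue) libraries, with 95% Poisson intervals. Areg stands at 2221 and 2118 CPM in the cluster led by Msln, Clu and Ly6a and at 211 and 155 CPM in the cycling cluster, while Ereg is highest in the fibroblast cluster led by Grem1 and Mmp10.

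The share of cells with Areg UMIs also differed among the clusters. Cells were thinned to 1000 UMIs so that depth could not set the share, which left 514 and 1111 epithelial-like and 247 and 340 fibroblast-like cells. Areg was then read in 198 of 514 epithelial-like cells (38.5%, 34.3 to 42.9) in Ptger4-ON and in 319 of 1111 (28.7%, 26.1 to 31.5) in Ptger4-OFF. In fibroblast-like cells the shares were 0.810% and 3.53%. Before thinning they were 62.6% and 51.9% of epithelial-like and 5.99% and 7.71% of fibroblast-like cells. By cluster, the highest share in both libraries was that of the cluster led by Msln, Clu and Ly6a, 68.3% (60.6 to 75.2) and 77.5% (66.8 to 86.1), and the cycling cluster had 14.02% and 13.7%. Cells with 5 or more Areg UMIs after thinning made up 21.6% and 22.5% of the cluster led by Msln, Clu and Ly6a, beside 7.59% and 3.42% of all epithelial-like cells. In the unthinned counts the tenth of epithelial-like cells with the most Areg UMIs held 71.3% and 70.2% of them, and the highest single cells had 206 and 173.

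**Figure D3:**
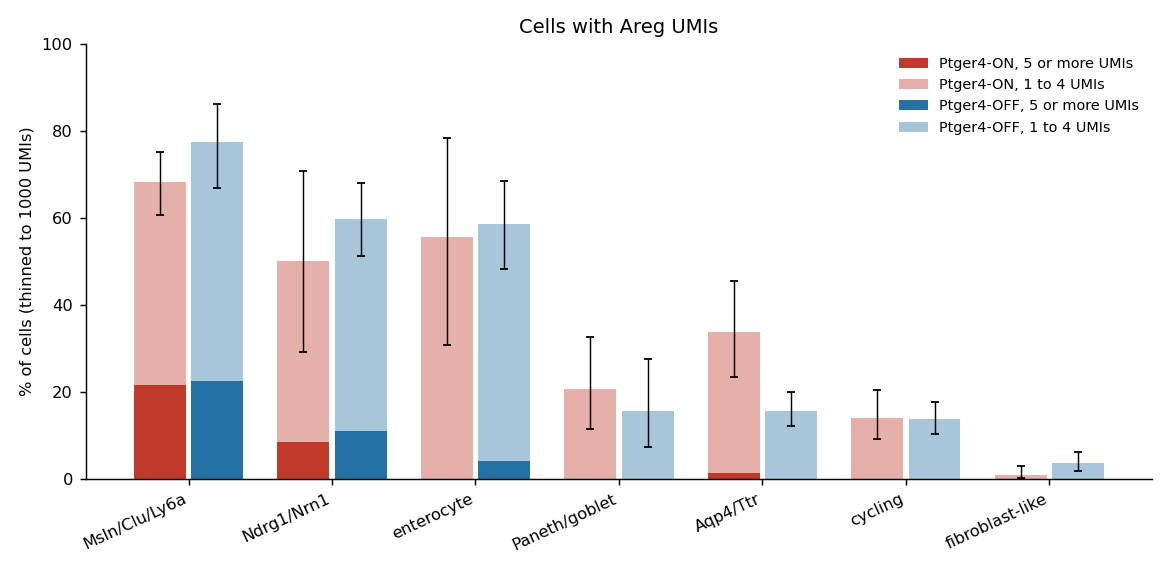
Share of cells (percent) with 1 to 4 Areg UMIs (light) and with 5 or more (dark) after thinning each cell to 1000 UMIs, for 6 epithelial clusters and the fibroblast-like class in the Ptger4-ON and Ptger4-OFF libraries. The cluster led by Msln, Clu and Ly6a reaches 68.3% and 77.5% in all, and the fibroblast-like class 0.810% and 3.53%.

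Ereg, the gene of the EGFR ligand epiregulin, was read in both classes and unevenly inside the fibroblasts. Its fibroblast level was 117 CPM from 203 UMIs in Ptger4-ON and 115 CPM from 207 UMIs in Ptger4-OFF, a ratio of 0.979 (0.803 to 1.19). In epithelial-like cells it was 29.9 CPM from 165 UMIs and 14.8 CPM from 111 UMIs. Epithelial Ereg was thus 2.02-fold higher (1.58 to 2.596) in Ptger4-ON and was the only member past 2-fold between the conditions in that class. It was under 2-fold with TMM or median-of-ratios scaling and with equal weight for each cell. The fibroblast level was 3.92-fold (3.18 to 4.84) the epithelial one in Ptger4-ON and 7.76-fold (6.13 to 9.87) in Ptger4-OFF. The 4-fold line lay just above the first of these values and within its interval, and Ereg was past it in Ptger4-ON under those 3 settings. The epithelial level was 25.5% and 12.9% of the fibroblast one, next to 0.330% for the fibroblast check genes in both libraries.

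The fibroblast cluster led by Grem1 and Mmp10, with 52 cells in each library, carried 129 of the Ereg UMIs in each. This came to 345 CPM in Ptger4-ON and 529.7 CPM in Ptger4-OFF, 1.54-fold higher (1.19 to 1.98) in Ptger4-OFF. The larger fibroblast cluster led by Mgp and Spp1 had 54.9 and 50.05 CPM. The first cluster's level was 6.28-fold (4.68 to 8.47) that of the second in Ptger4-ON and 10.6-fold (7.93 to 14.2) in Ptger4-OFF. Grem1 encodes a secreted BMP antagonist known from fibroblasts near the crypt base. The highest single cells of the first cluster gave 28 and 24 of the Ereg UMIs, and without them the level was 272 and 456 CPM. After thinning, 7 of its 50 cells in Ptger4-ON and 11 of its 50 cells in Ptger4-OFF had an Ereg UMI, beside 5.73% and 3.46% in the cluster led by Mgp and Spp1 and 2.14% and 1.17% of epithelial-like cells.

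Inside the epithelium, Ereg, like Areg, had its highest level in the cluster led by Msln, Clu and Ly6a. Its level in the cluster led by Msln, Clu and Ly6a was 66.0 CPM in Ptger4-ON and 59.8 CPM in Ptger4-OFF, a ratio of 0.907 (0.634 to 1.28). That cluster held 76.4% and 42.3% of the epithelial Ereg UMIs. This level was 12.2-fold that of the cycling cluster (6.75 to 24.2) in Ptger4-ON and 14.5-fold (7.84 to 28.5) in Ptger4-OFF. In Ptger4-ON the cluster led by Selenbp1, Ndrg1 and Nrn1 had 10 Ereg UMIs, of which 7 came from 1 cell. After thinning, 0 of its 24 cells there and 0 of 18 cells of the enterocyte-like cluster had an Ereg UMI. In the cluster led by Msln, Clu and Ly6a, 9 of 167 cells had one. With the clusters of Ptger4-OFF weighted as in Ptger4-ON, the epithelial ratio over the 6 clusters went from 0.489 to 0.846, and the fibroblast ratio over its 2 clusters from 0.974 to 1.31.

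Hbegf encodes heparin-binding EGF-like growth factor, a ligand of EGFR, and was read in many cells of both classes. Its epithelial level was 358 CPM from 1976 UMIs in Ptger4-ON and 334 CPM from 2508 UMIs in Ptger4-OFF, 1.07-fold higher (1.01 to 1.14) in Ptger4-ON. In fibroblast-like cells it was 139 CPM from 241 UMIs, 40 of them in 1 cell, and 98.7 CPM from 178 UMIs, 1.41-fold higher (1.16 to 1.72) in Ptger4-ON. The epithelial level exceeded the fibroblast one by 2.57-fold (2.25 to 2.95) and 3.39-fold (2.91 to 3.96). The fibroblast level was 38.9% and 29.5% of the epithelial one, next to 1.26% and 1.65% for the epithelial check genes. After thinning, 27.2% and 27.1% of epithelial-like and 12.1% and 10.3% of fibroblast-like cells had a Hbegf UMI, against 65.2%, 62.4%, 37.5% and 32.0% before.

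Hbegf varied less among the epithelial clusters than Areg did. The cluster led by Selenbp1, Ndrg1 and Nrn1 had 571 and 505 CPM and the cluster led by Msln, Clu and Ly6a 445 and 524 CPM, where the ratio of Ptger4-OFF to Ptger4-ON was 1.18 (1.05 to 1.33). Levels were lower in the cluster led by Mcm4, Aqp4 and Ttr with 415 and 283 CPM, the enterocyte-like cluster 255 and 405 CPM, the Paneth- and goblet-like cluster 268 and 232 CPM and the cycling cluster 290.1 and 266 CPM. Thus the level of the cluster led by Msln, Clu and Ly6a was 1.53-fold and 1.97-fold that of the cycling cluster. In the fibroblasts the cluster led by Grem1 and Mmp10 had 203 CPM in Ptger4-ON and 107 CPM in Ptger4-OFF, but 40 of its 76 UMIs in Ptger4-ON came from 1 cell. Without the highest cell of each library these levels were 100.4 and 92.5 CPM. In the cluster led by Mgp and Spp1 they were 122 and 97.5 CPM, a ratio of 0.801 (0.638 to 1.00).

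Btc encodes betacellulin, which binds EGFR and ERBB4. Its epithelial level was 111 CPM from 611 UMIs in Ptger4-ON and 77.0 CPM from 578 UMIs in Ptger4-OFF, 1.44-fold higher (1.28 to 1.61) in Ptger4-ON. Fibroblast-like cells held 10 and 8 UMIs, and the epithelial level was 19.2-fold (10.4 to 40.2) and 17.4-fold (8.75 to 40.4) theirs. The fibroblast level was 5.21% and 5.76% of the epithelial one. Within the epithelium, the cluster led by Msln, Clu and Ly6a had 176 and 246 CPM, with the higher value in Ptger4-OFF by 1.39-fold (1.16 to 1.67). In the Paneth- and goblet-like cluster the level was 82.8 and 25.3 CPM, 3.28-fold higher (1.69 to 6.98) in Ptger4-ON, and in the cycling cluster it was 44.2 and 46.9 CPM. The enterocyte-like cluster had 368 CPM in Ptger4-ON and 85.8 CPM in Ptger4-OFF, but 51 of its 75 UMIs in Ptger4-ON came from the cell of 92081 UMIs. Without the highest cell of each library its levels were 215 and 80.0 CPM. With the clusters of Ptger4-OFF weighted as in Ptger4-ON, the epithelial ratio of Btc went from 0.697 to 1.06.

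Tgfa, the gene of TGF-alpha, was read at a low level and in epithelial-like cells only, with 79 UMIs (14.3 CPM) in Ptger4-ON and 77 UMIs (10.3 CPM) in Ptger4-OFF. Its level was 1.40-fold higher (1.01 to 1.94) in Ptger4-ON. Against 0 UMIs in the fibroblast-like class and a floor of 3 counts over the class, the epithelial level was 8.27-fold and 6.17-fold higher. The exact intervals reached down to 6.57-fold and 4.90-fold. Of its epithelial UMIs, 63.3% in Ptger4-ON and 19.5% in Ptger4-OFF were in the cluster led by Msln, Clu and Ly6a. There the level was 26.2 and 19.1 CPM, 3.06-fold (1.77 to 5.49) and 2.23-fold (1.11 to 4.30) that of the cycling cluster.

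Nrg1 encodes neuregulin 1, a ligand of ERBB3 and ERBB4, and was read mainly in fibroblasts. Fibroblast-like cells held 22 UMIs in each library, 12.7 CPM and 12.2 CPM, a ratio of 0.961 (0.507 to 1.82). Epithelial-like cells held 0 UMIs in Ptger4-ON and 3 in Ptger4-OFF. The fibroblast level was 23.4-fold higher in Ptger4-ON against the same floor, with an exact interval down to 17.5-fold. In Ptger4-OFF it was 30.5-fold (9.17 to 159) higher. By cluster it was 16.0 and 24.6 CPM in the one led by Grem1 and Mmp10, from 6 UMIs in each library, and 11.1 and 10.3 CPM in the one led by Mgp and Spp1. Epgn, the gene of the ligand epigen, had 1 UMI in each class in Ptger4-ON, and 3 epithelial and 0 fibroblast UMIs in Ptger4-OFF, which is at or below the floor.

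Egfr, the gene of the receptor that these EGFR ligands bind, was read in both classes. In fibroblast-like cells its level was 79.7 CPM from 138 UMIs in Ptger4-ON and 68.2 CPM from 123 UMIs in Ptger4-OFF, a ratio of 0.856 (0.666 to 1.10). In epithelial-like cells it was 35.1 CPM from 194 UMIs and 22.0 CPM from 165 UMIs, 1.60-fold higher (1.29 to 1.98) in Ptger4-ON. The fibroblast level was 2.27-fold (1.81 to 2.83) and 3.10-fold (2.44 to 3.94) the epithelial one. The cells with the most Egfr mRNA in the epithelium were those of the cluster led by Msln, Clu and Ly6a, with 64.4 and 75.1 CPM and a ratio of 1.17 (0.840 to 1.60). That was 3.32-fold (2.33 to 4.82) and 4.89-fold (3.31 to 7.25) the level of the cycling cluster. The cluster held 63.4% and 35.8% of the epithelial Egfr UMIs. Weighting the clusters of Ptger4-OFF as in Ptger4-ON moved the epithelial ratio from 0.629 to 1.02. In the fibroblasts the cluster led by Mgp and Spp1 had 91.3 and 74.4 CPM and the cluster led by Grem1 and Mmp10 had 40.1 and 28.7 CPM, the reverse of the order of Ereg. The first was 2.28-fold (1.33 to 4.19) and 2.59-fold (1.22 to 6.58) the second.

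Erbb3, the gene of the neuregulin receptor, was read in epithelial-like cells only. Its level was 43.7 CPM from 241 UMIs in Ptger4-ON and 50.1 CPM from 376 UMIs in Ptger4-OFF. It was the one measured member whose epithelial level was higher in Ptger4-OFF, by 1.15-fold with an interval of 0.973 to 1.35 that includes 1. Fibroblast-like cells held 0 UMIs in both libraries. Against a floor of 3 counts the epithelial level was 25.2-fold and 30.1-fold higher, with exact intervals down to 20.3-fold and 24.4-fold. After thinning, 0 of 247 and 0 of 340 fibroblast-like cells had an Erbb3 UMI, with upper limits of 1.48% and 1.08%. Nrg1 and its receptor's gene were therefore read mainly in opposite classes. The enterocyte-like cluster had the highest Erbb3 level, 103 and 92.5 CPM, which was 3.13-fold (1.83 to 5.15) and 2.41-fold (1.77 to 3.25) that of the cycling cluster. In Ptger4-ON 13 of its 21 UMIs came from the cell of 92081 UMIs, and the levels without the highest cell of each library were 71.6 and 93.1 CPM. The cluster led by Msln, Clu and Ly6a had 50.8 and 68.7 CPM, and the cycling cluster 32.9 and 38.4 CPM.

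Erbb2, the gene of the partner receptor, leaned to the epithelium. Its level was 29.4 CPM from 162 UMIs in Ptger4-ON and 21.2 CPM from 159 UMIs in Ptger4-OFF, 1.39-fold higher (1.11 to 1.74) in Ptger4-ON. In fibroblast-like cells it was 11.5 CPM from 20 UMIs and 6.65 CPM from 12 UMIs, with a ratio of 0.576 whose interval of 0.257 to 1.24 includes 1. The epithelial level was 2.54-fold (1.59 to 4.27) and 3.18-fold (1.77 to 6.29) the fibroblast one. Among the epithelial clusters its values lay between 19.8 and 40.4 CPM in Ptger4-ON and between 16.1 and 38.2 CPM in Ptger4-OFF. The cluster led by Msln, Clu and Ly6a, with 37.7 and 38.2 CPM, stood 1.90-fold (1.29 to 2.83) and 2.31-fold (1.43 to 3.66) above the cycling cluster. Weighting the clusters of Ptger4-OFF as in Ptger4-ON moved its epithelial ratio from 0.721 to 0.844.

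**Figure D4:**
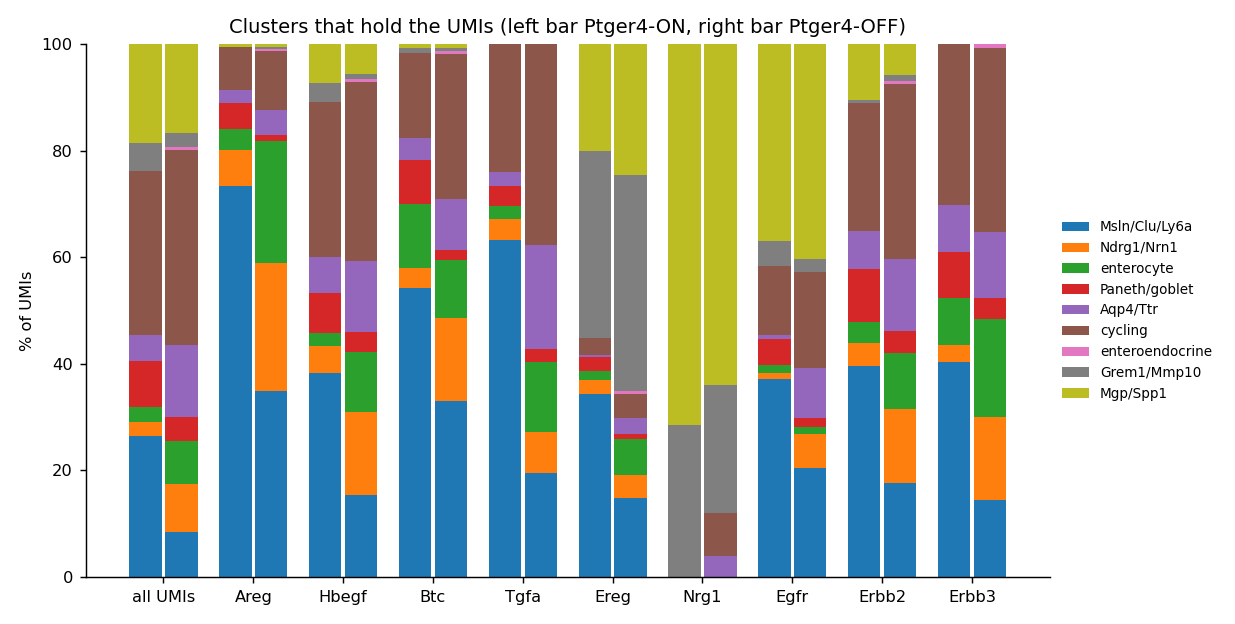
Percent of the UMIs held by each cluster, for all UMIs and for 9 members (Epgn left out), with Ptger4-ON as the left and Ptger4-OFF as the right bar of each pair. The cluster led by Msln, Clu and Ly6a holds the largest block of Areg in both libraries, 73.4% and 34.9% of the UMIs of all clusters shown, and most Nrg1 UMIs lie in the fibroblast clusters.

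Taking the comparison of the conditions over all members, 1 of 8 measured members was past 2-fold in the epithelium (Ereg, lower in Ptger4-OFF), beside 7.24% of the 11595 genes measured, with 4.35% lower and 2.89% higher in Ptger4-OFF. The ratio of Ptger4-OFF to Ptger4-ON was below 1 for 7 of 8 members. Its median on the log2 scale was -0.50, and over all genes it was -0.04. In fibroblast-like cells 0 of 6 measured members were past 2-fold, beside 3.36% of 9711 genes (1.45% higher and 1.91% lower in Ptger4-OFF), and 5 of 6 ratios were below 1, with a log2 median of -0.14 against 0.01. The classes were not made of the same clusters in both libraries. The clusters led by Msln, Clu and Ly6a (33.0%) and the cycling cluster (30.1%) were the largest of the epithelial-like class in Ptger4-ON, and the clusters led by Mcm4, Aqp4 and Ttr (33.0%) and the cycling cluster (32.6%) in Ptger4-OFF. Since each library is a pool, a state with fewer cells in a condition and a gene with less mRNA in each cell are separated here only as far as the clusters separate them.

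**Figure D5:**
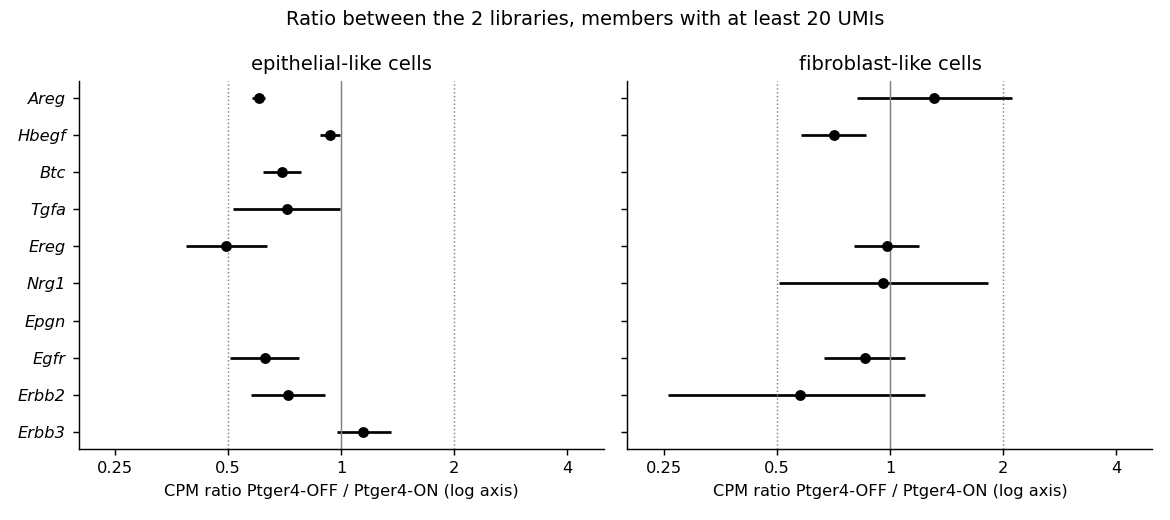
Ratio of the level in Ptger4-OFF to that in Ptger4-ON (log axis) with 95% intervals for the members with at least 20 UMIs, shown for each of the 2 classes; dotted lines mark ratios of 0.5 and 2. Among the epithelial ratios Ereg lies at 0.495 and Erbb3 at 1.15, and the other members lie between.

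Beyond the members, 64 genes of the pathway were read from lists of its parts. The other genes of the family were little read. Nrg3 and Erbb4 were not among the genes of the tables, and of the other 3 only Nrg4, a neuregulin that binds ERBB4, was measured, at 7.25 CPM in Ptger4-ON and 7.59 CPM in Ptger4-OFF in epithelial-like cells. Egf itself had 2 UMIs in each library in the epithelial clusters.

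Genes of ligand shedding were read in both classes. In the epithelium 0 of 6 measured genes were past 2-fold between the conditions, beside 7.24% of all genes measured, 5 of 6 ratios were below 1 and the log2 median was -0.41. Adam17, the main protease that frees amphiregulin, TGF-alpha and HB-EGF, had 36.1 CPM in Ptger4-ON and 31.6 CPM in Ptger4-OFF. Adam10, which frees betacellulin, had 180.3 and 159.6 CPM. Rhbdf1, which encodes a partner of ADAM17, had 23.9 and 13.8 CPM. In fibroblast-like cells Adam17 had 42.1 and 63.2 CPM, with the ratio of Ptger4-OFF to Ptger4-ON between 1.11 and 2.04. There 0 of 7 shedding genes were past 2-fold, beside 3.36% of all genes measured. Between the classes, Adam12 was a fibroblast gene with 0 epithelial UMIs and 119 fibroblast UMIs in Ptger4-ON, at least 126-fold higher, and with 1 and 106 UMIs in Ptger4-OFF. Adam15 was 8.58-fold and 6.57-fold higher in fibroblast-like cells, and Adam9 was 4.76-fold higher there in Ptger4-OFF.

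The inhibitors of the receptors and of the pathway were read in both classes. In the epithelium 0 of 16 measured genes were past 2-fold between the conditions, beside 7.24% of all genes measured, with 11 of 16 ratios below 1 and a log2 median of -0.16. Errfi1, whose product blocks the EGFR kinase, had 169 CPM in Ptger4-ON and 172 CPM in Ptger4-OFF, and Lrig1, which marks crypt stem cells and restrains the ERBB receptors, had 69.6 and 68.2 CPM. The ERK phosphatase gene Dusp4 had 50.9 and 34.2 CPM. In fibroblast-like cells 1 of 17 was past 2-fold, beside 3.36% of all genes measured, namely Cbl, the gene of a ubiquitin ligase for EGFR, with 29 and 13 UMIs and a level 2.32-fold higher (1.17 to 4.87) in Ptger4-ON. Between the classes, the inhibitor genes Spred3 and Spry2 were past 4-fold, on the fibroblast side, in both libraries (15.9-fold and 7.08-fold in Ptger4-ON, 18.3-fold and 5.28-fold in Ptger4-OFF), joined by Spry1 in Ptger4-OFF (4.01-fold).

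Of the adaptors and the RAS-ERK cascade, 0 of 17 measured genes were past 2-fold in the epithelium, beside 7.24% of all genes measured. Between the classes 0 of 17 were past 4-fold in either library, beside 23.3% and 24.4% of all genes measured. In fibroblast-like cells 1 of 17 was past 2-fold, beside 3.36% of all genes measured. It was the adaptor gene Gab1, with 16 and 6 UMIs and a level 2.78-fold higher (1.03 to 8.66) in Ptger4-ON. Of the ERK-responsive genes, 3 of 18 were past 2-fold in the epithelium, all lower in Ptger4-OFF, where 4.35% of all genes measured were lower by that much. They were Plaur, the gene of the urokinase receptor (27.9 and 8.92 CPM, 3.13-fold, 2.33 to 4.23), Ccnd1, the gene of cyclin D1 (429.8 and 203 CPM, 2.12-fold, 1.98 to 2.26), and the immediate early gene Ier3 (174.5 and 86.6 CPM, 2.02-fold, 1.82 to 2.23). Ier3 lay just inside the line, and Etv4, an ETS factor gene, just outside it with 13.0 and 6.53 CPM. Of the 18 ratios 12 were below 1, with a log2 median of -0.21.

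The 3 ERK-responsive genes past 2-fold, picked for being higher in Ptger4-ON, where the cluster led by Msln, Clu and Ly6a was larger, are given by cluster as a description. In this cluster, where the Areg level was highest, Plaur had 57.6 CPM in Ptger4-ON and 39.5 CPM in Ptger4-OFF, Ccnd1 705 and 335 CPM, and Ier3 328 and 233 CPM. In the cycling cluster Plaur had 10.8 and 2.66 CPM, Ccnd1 257 and 197 CPM, and Ier3 82.0 and 65.8 CPM. In fibroblast-like cells 0 of 19 ERK-responsive genes were past 2-fold between the conditions, beside 3.36% of all genes measured. Between the classes 4 were past 4-fold on the fibroblast side in both libraries (Spp1, Hmga2, Fosl1 and Ier3) and 1 on the epithelial side (Fos, 4.75-fold and 5.51-fold), out of 18 measured. Of all genes measured, 10.3% and 10.9% were past 4-fold on the fibroblast side and 13% and 13.5% on the epithelial side. Spp1 also leads one of the fibroblast clusters.

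Genes whose levels ran most like those of the members were looked up over 17 points, the clusters of each library with at least 20 cells, among 5553 genes. These include a shallow cluster led by Grem1 and Cald1 (26 cells in Ptger4-ON, median 1114 UMIs over both libraries), which the cluster levels above leave out. The 17 points share libraries, depth and the classes, so the correlations (Pearson's r of log2 CPM plus 10) are a description. The pattern of Areg was most like those of Mpzl3 (0.97), F11r (0.97) and Flrt3 (0.96). For Btc the nearest were F11r (0.96), Bcar3 (0.96) and Vasp (0.95), and for Hbegf Jmjd1c (0.95), Ankrd11 (0.94) and Clcn3 (0.94). Ereg, which is read in both classes, was nearest to Hist1h1c, Btg2 and Scarb2 (0.90 each). For Egfr the nearest were Casp4 (0.86), Arfgap1 (0.86) and Zmat3 (0.85), and for Erbb3 Igsf23, Gipc2 and Tmem45b (0.99 each). Among the members themselves, Areg stood at 0.94 with Btc, 0.90 with Erbb3 and 0.88 with Hbegf, but at 0.04 with Egfr and -0.11 with its neighbour on the chromosome, Ereg.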

How the data were processed

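The 2 tables were analysed, 1 for each library, with a whole-number count of UMIs for each gene and cell barcode, as deposited by the authors. Per the submitters' processing notes, STAR 2.6 and the mm10 build were used; for the counting tool, the annotation and the choice of barcodes the sources used here give nothing. There were 0 columns of other samples.

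Barcodes needed 300 genes or more and no more than 20% mitochondrial UMIs. Scrublet (scanpy 1.11.5) called doublets, and 6 and 5 were removed, leaving 876 and 1559 cells. A cell's class needed at least 3 marker UMIs, with 90% of them from one set; 14 and 40 cells were mixed, 41 and 29 had too few, and both were left out. Leiden clustering (igraph 0.11.9, resolution 0.5, 30 components, 15 neighbours, 2000 variable genes, counts scaled to 10000) left out the 74 member and pathway genes. Clusters were named by markers where these allowed it and otherwise by genes picked from among their leading genes. UMIs were summed by class or cluster and library and given in each 1000000 (CPM), with exact Poisson intervals; ratios have exact conditional binomial intervals and shares Clopper-Pearson intervals, by scipy 1.17.1. A gene was measured from 20 UMIs over both groups. Lines of 2-fold (conditions) and 4-fold (classes) mark size and are no test. The interval code was tested on class sums simulated with Poisson error, which leaves out the clumping of UMIs in single cells.

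All 10 members were named, and of each pathway list up to 4 genes with the largest ratios and those past the line; Adam17, Adam10, Errfi1, Lrig1 and Egf were added for their roles after values were seen. The members and lists were chosen with earlier results of these data known. Alternatives covered scaling (TMM of edgeR 4.0.16, median of ratios), filters, classes, doublets, thinning, deep barcodes and equal cell weights; weighting by cluster, values within clusters and leaving out the highest cell were added after seeing the data. Effects of the inhibitor, the pool and the library preparation cannot be told apart.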

Additional observations from a re-analysis of the deposited data

Results flagged for a closer look

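For 3 ligand genes the ratio of Ptger4-OFF to Ptger4-ON inside some epithelial clusters lay apart from the ratio of the rest, and their differences were not tested, since each condition is 1 library. For Areg the ratio was 1.33 inside the enterocyte-like cluster, against 0.686 inside the cluster led by Selenbp1, Ndrg1 and Nrn1, 0.298 in the Paneth- and goblet-like cluster, 0.452 in the cluster led by Mcm4, Aqp4 and Ttr and 0.732 in the cycling cluster. For Hbegf it was 1.18 in the cluster led by Msln, Clu and Ly6a and 1.59 in the enterocyte-like cluster, against 0.681 in the cluster led by Mcm4, Aqp4 and Ttr. For Btc it was 1.39 in the cluster led by Msln, Clu and Ly6a, against 0.233 in the enterocyte-like and 0.305 in the Paneth- and goblet-like cluster. In the Ptger4-ON enterocyte-like cluster 1 cell of 92081 UMIs gave 117 of 223 Areg, 22 of 52 Hbegf and 51 of 75 Btc UMIs; without the highest cell of each library the ratios there were 1.40, 1.44 and, for Btc, 2.69-fold higher in Ptger4-ON.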

How the results depend on the processing

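The count of members past 2-fold in the epithelium, 1 as reported, was 0 with TMM factors, with median-of-ratios factors and with equal weight for each cell, as the ratio of Ereg lay between 0.441 and 0.566 over 14 alternatives. In fibroblast-like cells it was 1 in place of 0 with equal weight for each cell (Erbb2, 0.433). The class counts stayed within 1.5 times of 5 and 6; with both scalings and equal cell weights Ptger4-ON had 6. TMM put the common log2 ratio of fibroblast to epithelial levels at -0.21 and -0.17, and no class difference named changed direction. The Areg level of the cluster led by Msln, Clu and Ly6a over the cycling cluster was 12.6 and 15.6 without barcodes of over 50000 UMIs, and 12.1 and 18.3 with equal cell weights. Without those barcodes the epithelial Areg ratio was 0.510. Shares of cells followed the depth kept: for epithelial Areg 28.5% to 62.6% in Ptger4-ON and 19.5% to 51.9% in Ptger4-OFF, with Ptger4-ON higher at each. No paired analysis was possible because each condition has 1 library, and for the same reason no replicate could be left out. Depth limits Epgn, Nrg1 and Tgfa most, with under 100 UMIs a class.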
